A study of Homo sapiens with 6 samples.

Results

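The interleukin 1 (IL-1) family genes IL1A, IL1B, IL1RN, IL18, IL33, IL1R1, IL1RAP and IRAK1 were examined in BT-549/tet-WDR5shRNA cells. They were chosen by name, and all 8 of 8 were found among the 19792 gene symbols of the deposited RNA-seq table. BT-549 cells derive from a triple-negative breast cancer (TNBC). All cells carried a puromycin-selected tetracycline-inducible vector with 1 shRNA against WDR5, a core subunit of the COMPASS H3K4 methyltransferases, and doxycycline (DOX) induces it. Vehicle (0.1% DMSO) was given to 3 cultures and DOX at 500 ng/ml to the other 3, for 7 days by the study's text. No group without the shRNA was analysed here, so DOX itself and silencing of WDR5 cannot be told apart in this design.

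The measurement is the mean normalized read count, which the authors computed with DESeq2 as 1 mean per gene over all 6 libraries, vehicle and DOX together. The authors' own comparison of DOX with vehicle was deposited too but was not used here. Values of DOX against vehicle were thus not analysed, and a difference between both groups is averaged in each mean. WDR5 itself, the targeted gene, stood at 1143 in the authors' pooled mean, which does not check the silencing. What the column does show is which parts of the IL-1 system these cells transcribed and at what level. Ratios and orders between genes were taken per length, as the mean normalized count per kb of exon sequence scaled so that all genes sum to 1000000 (ppm). Mean normalized counts, which are not divided by length, are given for each gene as the amount of evidence behind its level.

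IL-1α (IL1A) and IL-1β (IL1B) are inflammatory cytokines that bind the receptor IL-1R1, which then pairs with the accessory chain encoded by IL1RAP. The intracellular domains of the paired receptor gather the adaptor MYD88 and the kinases IRAK4 and IRAK1, and the signal passes through TRAF6 and TAK1 to NF-κB and AP-1. IL1RN encodes a secreted antagonist that occupies IL-1R1 without recruiting the accessory chain. IL-18 and IL-33 are related cytokines with receptors of the same family. In epithelial and stromal tumor cells the system is known both as an autocrine source of inflammatory signaling and as a way to respond to IL-1 from infiltrating leukocytes.

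The receptor and kinase genes were abundant, whereas the secreted members were scarce. IL1B was low but had reads in all 6 libraries, and the other secreted members were at or near the limit of detection. In the authors' pooled mean, IRAK1, IL1R1 and IL1RAP had mean normalized counts of 6932, 3398 and 5153. IL1B and IL1A had 11.1 and 3.07, and IL1RN, IL33 and IL18 had 0.411, 0.392 and 0.370. A mean normalized count of 10 or more was found for 4 of the 8 members (50%) and for 13548 of all 19792 genes (68.5%). By level per length, 3 of the 8 members stood above the median gene, namely both receptor chains and the kinase.

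**Figure D1:**
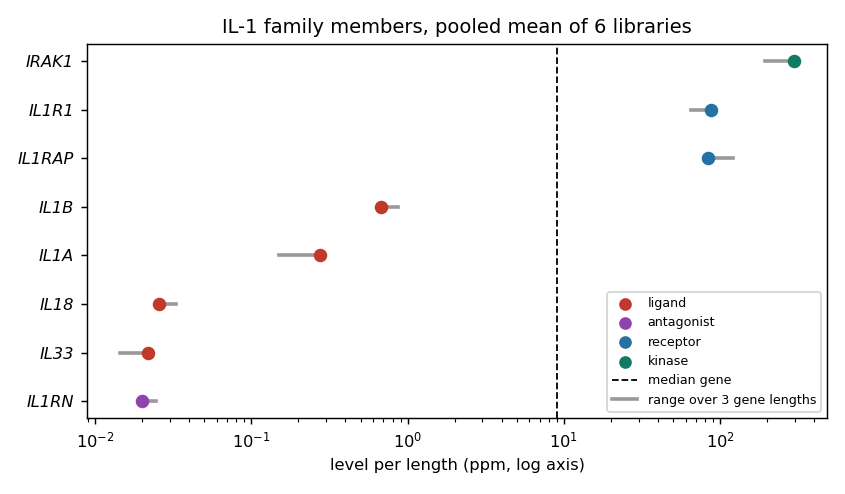
Level per length of each member (ppm, log axis) from the pooled mean of 6 libraries, with points coloured by role, grey bars for the range over 3 definitions of gene length and a dashed line at the median gene (8.995). The 3 receptor and kinase genes lie between 83.5 and 295, and the 5 secreted members lie at 0.671 or below.

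IRAK1 encodes a kinase that is phosphorylated by IRAK4 and released from the receptor complex to engage TRAF6. The gene lies on chromosome X from 154010506 to 154019902 on the minus strand (GRCh38, GENCODE 44). Its level per length was 295 ppm, above that of 96.8% of genes with an annotated length. With the longest or the canonical transcript as the length, the level was 245 or 192 ppm. IRAK1 was the highest of the 8 members under each of these lengths. Between 30640 and 55900 reads stand behind its mean, so counting error plays little part in it.

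IL1R1 encodes the signaling receptor for both IL-1 cytokines. It lies on chromosome 2 from 102064544 to 102179874 on the plus strand, and its level per length was 86.7 ppm, above 86.5% of genes. IL1RAP encodes the accessory chain, which also serves the receptors for IL-33 and IL-36. It lies on chromosome 3 from 190514051 to 190659750 on the plus strand, with a level per length of 83.5 ppm, above 85.9% of genes. The order of these 2 chains was not settled, since the ratio of the IL1RAP level to the IL1R1 level was 0.964 with the union of exons and 1.45 or 1.66 with the longest or the canonical transcript. At least 15020 reads for IL1R1 and 22779 for IL1RAP stand behind these values. No spread between cultures is known for the 3 abundant members, so none of the differences among them was tested. An antisense gene, IL1R1-AS1, shares 11 exon bases with IL1R1.

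For the secreted members, the reads themselves could be recovered. A gene with 1 read in all takes 1 of 6 values, and each of these is what 1 read is worth in 1 library. The 6 values gave size factors (relative depths) from 0.737 to 1.34, a 1.82-fold range. Means of 4684 of 4684 genes below 3 were matched by exactly 1 combination of whole reads to within 1e-12. The libraries are numbered here from 1, the deepest, to 6, the shallowest, and nothing in the column ties a number to vehicle or DOX. The values of a library are thus given without a group and were not compared between groups.

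IL1B lies on chromosome 2 from 112829751 to 112836816 on the minus strand, and its product is made as a precursor that caspase-1 cleaves. It had 9, 11, 14, 8, 11 and 12 reads in libraries 1 to 6. After division by depth these are normalized counts of 6.70, 9.47, 12.1, 8.27, 13.9 and 16.3. IL1B was thus detected in all 6 libraries, with the highest normalized counts in libraries 5 and 6, which are also the shallowest. Whether depth has a part in this order was not tested. The total of 65 reads has an exact 95% Poisson interval from 50.2 to 82.8, which puts the mean between 8.58 and 14.2, for counting error only. Its level per length was 0.671 ppm, above 28.6% of genes.

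IL1A, its neighbor on chromosome 2 from 112773925 to 112784493, encodes a cytokine that is active as a precursor and acts as an alarm signal when cells are damaged. It had 1, 2, 5, 0, 6 and 3 reads in libraries 1 to 6, or normalized counts of 0.744, 1.72, 4.31, 0, 7.57 and 4.07. Libraries 3, 5 and 6 were the highest, and library 4 had no read, although 1 read there is worth a normalized count of only 1.03. The total of 17 reads has a 95% interval from 9.90 to 27.2, which puts the mean between 1.79 and 4.92, for counting error only. Per length, the level of IL1B was 2.43 times that of IL1A with the union of exons and 4.51 or 4.84 times with the longest or the canonical transcript. The counting intervals of these levels, with the union of exons, were 0.518 to 0.855 ppm for IL1B and 0.161 to 0.443 ppm for IL1A. The ranges over libraries overlapped, since IL1A had 3.75 normalized counts per kb in its highest, library 5, and IL1B 2.23 in its lowest, library 1. Within each of the 6 libraries, however, IL1B had more reads and more normalized counts per kb than IL1A. This order was not tested.

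The other 3 secreted members rest on 8 reads together. IL1RN, on chromosome 2 from 113099315 to 113134016, had 1 read in library 1 and 2 in library 2. IL33, on chromosome 9 from 6215786 to 6257983, encodes a nuclear cytokine that is released from injured cells, and it had 2 reads in library 1 and 1 in library 3. IL18, on chromosome 11 from 112143253 to 112164096, encodes a cytokine that drives interferon-γ production in lymphocytes, and it had 1 read in each of libraries 2 and 6. Each of the 3 genes had no read in 4 of the 6 libraries. The totals of 3, 3 and 2 reads have 95% intervals of 0.619 to 8.77, 0.619 to 8.77 and 0.242 to 7.22, and the order of these 3 genes cannot be told. At this depth their transcripts were barely detectable, which is not the same as absent.

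**Figure D2:**
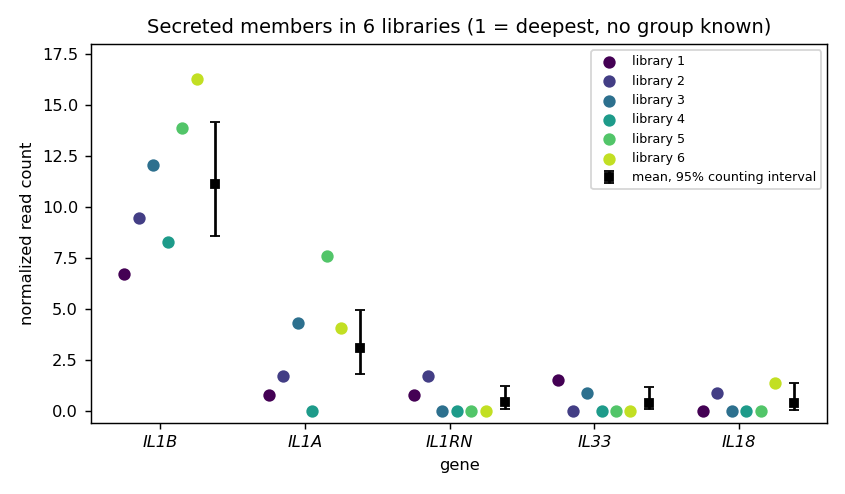
Normalized read count of the 5 secreted members (vertical axis) in each of the 6 libraries, coloured from library 1 (deepest) to 6 (shallowest), with a black square for the pooled mean and its 95% counting interval. IL1B lies between 6.70 and 16.3 in all libraries, IL1A between 0 and 7.57, and the other 3 genes are at 0 in 4 of 6 libraries.

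Receptor and ligand levels were far apart. Per length, the IL1R1 level was 129 times that of IL1B with the union of exons (95.4 and 88.9 times with the other 2 lengths) and 313 times that of IL1A (431 times with either other length). The IL1RAP level was 124 to 147 times that of IL1B over the 3 lengths. With the union of exons, the counting error of the ligand alone puts the first of these ratios between 101 and 167 for IL1B and between 196 and 538 for IL1A. The spread of IL1R1 and IL1RAP between cultures is not known.

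The genes around the members were as uneven. IL1R1 is 1 of 6 receptor genes on the plus strand of chromosome 2, over 461 kb from 101991960 to 102452565. Among them, IL1RL1 (102311502 to 102352037) and IL18R1 (102311529 to 102398777) overlap. How reads in sequence shared by IL1RL1 and IL18R1 were assigned is not known. In order along the chromosome, the mean normalized counts were 7.50 for IL1R2, 3398 for IL1R1, 26.1 for IL1RL2, 2.14 for IL1RL1, 30.6 for IL18R1 and 0.316 for IL18RAP. Per length, IL1R1 had 86.7 ppm, and the next highest gene of this cluster, IL1RL2, had 1.82 ppm. IL1R2, the nearest gene upstream, encodes a decoy receptor that binds IL-1 without signaling, and its 45 reads were spread over all 6 libraries, with 5, 6, 15, 6, 7 and 6. The IL1R1 level per length was 128 to 188 times that of IL1R2 over the 3 lengths. About 360 kb of the same chromosome, from 112773925 to 113134016, hold IL1A, IL1B, IL1RN and 6 related ligand genes. Of these 9 genes, 8 had a row, and IL1B with 0.671 ppm and IL36RN with 0.616 ppm had the highest levels per length. IL1F10 had no row.

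The other genes of the pathway, 44 in all, were taken by role, and 42 had a row. A mean normalized count of 10 or more was found for 28 of these 42 (66.7%), beside 68.5% of all genes. The kinases below the receptor were all present. TAK1 (MAP3K7), which activates the IκB kinases and the JNK and p38 arms, had a mean normalized count of 2658. Its partners TAB1, TAB2 and TAB3 had 551, 4468 and 1310. The IκB kinase subunits CHUK, IKBKB and IKBKG, which release NF-κB from its inhibitors, had 1442, 2196 and 569. Each of these 7 genes stood above the median gene per length, with levels from 18.9 ppm for TAB3 to 133 for TAB2.

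Of 9 genes acting at the receptor, 8 had a mean normalized count of 10 or more. MYD88, the adaptor, had 1510 and IRAK2, a relative of IRAK1 that sustains the signal, had 1376, with levels per length of 65.5 and 72.9 ppm. The IRAK1 level was 4.05 to 4.83 times that of IRAK2 over the 3 lengths, and 11.6 to 16.6 times that of IRAK4. IRAK4, which starts the kinase cascade, had a mean normalized count of 716. TRAF6, the ubiquitin ligase below IRAK1, had 387, and TOLLIP, which restrains IRAK1, had 677. IRAK3, an inhibitory relative found mainly in myeloid cells, had 104 and a level of 1.95 ppm. Among the Pellino ubiquitin ligases, PELI1 and PELI3 had mean normalized counts of 271 and 182, and PELI2 had 3.87.

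For the receptors of the other cytokines, 1 chain or both were scarce. IL1RL1, the receptor for IL-33, had 13 reads over all libraries and a mean normalized count of 2.14. IL18RAP, the second chain of the IL-18 receptor, had 2 reads, whereas IL18R1, its first chain, had a mean normalized count of 30.6. The values of IL1RL1 and IL18R1 are limited by the overlap of these genes. IL18BP, a secreted protein that neutralizes IL-18, had 164. IL1RL2, the receptor for the IL-36 cytokines, had 155 reads and a mean normalized count of 26.1. SIGIRR, a family member that dampens signaling, had a mean normalized count of 344 and the highest level per length of this role, 17.9 ppm, and it alone of the 8 genes with a row stood above the median gene. IL1RAPL1 had 4.21 and IL1RAPL2 had no row. The levels per length of the 5 other ligand genes with a row ran from 0.0281 ppm for IL37 to 0.616 ppm for IL36RN, an antagonist of the IL-36 receptor.

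The machinery that matures and releases IL-1β and IL-18 was present only in part. CASP1, the protease that cleaves both precursors, had a mean normalized count of 210, and GSDMD and GSDME, which form the pores through which the cytokines leave, had 821 and 755. CASP4 and CASP8 had 1225 and 1191. The inflammasome sensors NLRP3, NLRC4 and AIM2 had 4, 2 and 8 reads over all libraries, NLRP1 had a mean normalized count of 45.4, and PYCARD, the adaptor that joins sensors to CASP1, had 27 reads. CASP5 was seen in 2 reads. CAPN1 and CAPN2, calpain subunits that can trim the IL-1α precursor, had mean normalized counts of 2091 and 18883, and CAPN2 had the highest level of the whole list at 399.7 ppm.

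**Figure D3:**
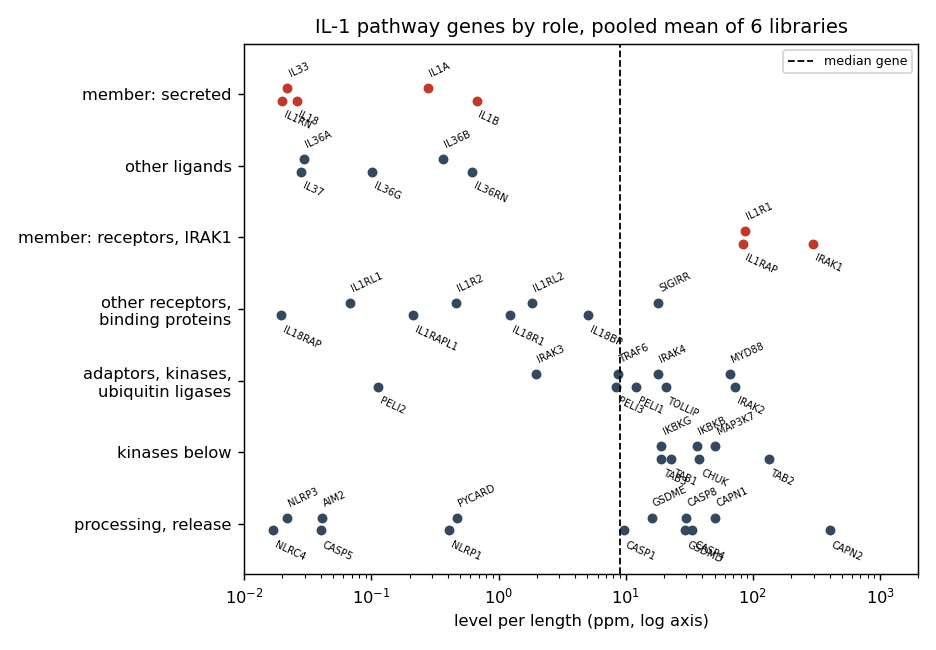
Level per length (ppm, log axis) of the 8 members (red) and the 42 other pathway genes with a row (dark), in rows by role, with a dashed line at the median gene. All 7 kinases below the receptor lie to the right of the line, and all 10 ligand and antagonist genes lie at 0.671 or below.

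The members also differed in the sequence before their start sites, which the choice of genes did not use. RefSeq promoter windows (GRCh38.p14) were matched for 7 of the 8 members, all except IL18. CpG pairs, the sites of DNA methylation that are dense in the promoters of widely expressed genes, were counted in the 250 bases before each RefSeq start. The following windows run 5′ to 3′ on the strand of the gene, from base 250 to base 51 before the start, with CpG pairs in capitals. IRAK1 and IL1RAP are shown as CpG-dense windows of abundant members. IL1R1 is shown as a CpG-poor window of an abundant member and IL1B as a CpG-poor window of a scarce one. They lie at chrX:154019953-154020152 (minus strand), chr3:190513835-190514034 (plus), chr2:102104354-102104553 (plus) and chr2:112836830-112837029 (minus).
IRAK1: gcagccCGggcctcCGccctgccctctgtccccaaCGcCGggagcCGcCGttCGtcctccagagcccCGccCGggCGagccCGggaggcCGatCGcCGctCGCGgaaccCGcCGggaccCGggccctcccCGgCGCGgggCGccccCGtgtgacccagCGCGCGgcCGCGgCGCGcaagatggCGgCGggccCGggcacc
IL1RAP: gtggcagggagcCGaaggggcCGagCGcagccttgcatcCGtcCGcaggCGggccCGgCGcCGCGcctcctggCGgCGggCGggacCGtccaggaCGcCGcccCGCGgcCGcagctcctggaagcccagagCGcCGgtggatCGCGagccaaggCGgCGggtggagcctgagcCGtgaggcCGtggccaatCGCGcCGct
IL1R1: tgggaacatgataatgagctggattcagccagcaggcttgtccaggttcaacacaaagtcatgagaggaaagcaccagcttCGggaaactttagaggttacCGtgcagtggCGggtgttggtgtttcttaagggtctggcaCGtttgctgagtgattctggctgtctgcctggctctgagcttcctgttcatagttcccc
IL1B: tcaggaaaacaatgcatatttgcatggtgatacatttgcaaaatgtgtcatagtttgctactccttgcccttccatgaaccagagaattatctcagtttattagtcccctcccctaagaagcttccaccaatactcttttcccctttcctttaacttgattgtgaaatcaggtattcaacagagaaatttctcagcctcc

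The full 250 bases held 43 CpG pairs for IRAK1 and 33 for IL1RAP, but only 6 for IL1R1. Among the secreted members, IL1A had 7, IL1RN 2, IL1B 1 and IL33 none. Among genes with a RefSeq window, the median was 21 for 9728 protein-coding genes with a mean normalized count of 10 or more. It was 8 for 2424 such genes with a row below 10. Genes without a window are not in these sets. IL1R1 was thus an abundant gene with a CpG count below the lower quartile (14) of the first set. Of 1133 protein-coding genes with 5 to 9 CpG pairs, 60.5% had a mean normalized count of 10 or more. Their median level per length was 1.79 ppm, compared with 86.7 ppm for IL1R1. IL1R1 has several start sites, and the RefSeq window lies within the gene's annotated span, so which promoter these cells used is not known from the column. The same holds for IL1RN. RefSeq and annotated gene starts also differed for IL1B (112836779 and 112836816), IL1RAP (190514085 and 190514051) and IL33 (6215149 and 6215786).

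**Figure D4:**
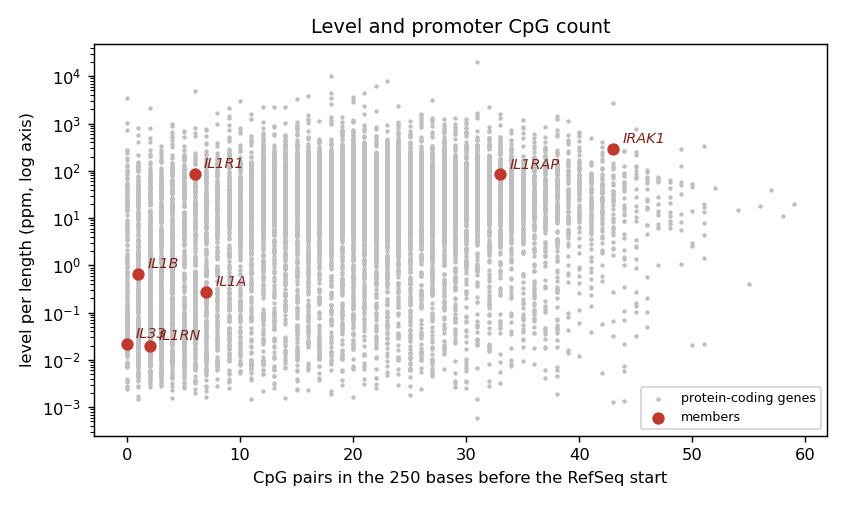
CpG pairs in the 250 bases before the RefSeq start (horizontal axis) against level per length (ppm, log axis) for protein-coding genes (grey) and 7 members (red). IRAK1 with 43 and IL1RAP with 33 CpG pairs lie to the upper right, whereas IL1R1, with 6, lies at a level near that of IL1RAP.

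The same 250 bases were searched for 3 motifs. The NF-κB consensus, on either strand, was in none of the 7 windows and in 5.05% of all 27305 promoters. The AP-1 motif TGANTCA, which reads alike on both strands, was found in IL1A, with its first base 12 bases before the start, and in IL1RN, 223 bases before it, and in 6.60% of all promoters. TATAAA on the strand of the gene was found in IL1A alone of the 7, 239 bases before the start, and in 7.17% of all promoters. Among protein-coding genes of 10 or more by mean normalized count, NF-κB, AP-1 and TATAAA matches were in 6.02%, 3.62% and 3.35%. Among those with a row below 10, they were in 6.02%, 7.76% and 9.57%. A match describes letters only, and binding was not measured here.

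The label of the line was checked against its markers. VIM, FN1, CDH2, ZEB1 and SPARC, genes of mesenchymal cells, had mean normalized counts from 4093 to 47782, and ESR1, PGR and EPCAM had 0.790 to 1.30, whereas ERBB2 had 1221 and CDH1 59.6. Of 5 leukocyte markers, CD3E had no row, CD79A had 1.28, CD14 24.02, PTPRC 44.7 and CD68, a lysosomal gene that other cells also express, 1813. Their part in the low values of IL1A, IL1B and IL18, which leukocytes express, was not tested. Mean normalized counts of the endothelial markers PECAM1 and VWF were 2.86 and 0.621, and those of KRT5 and KRT14, keratins of basal epithelium, were 0.909 and 7.11. GAPDH, ACTB and EEF1A1, which all cells express, had 82531 to 183430. The mean normalized counts of all genes sum to 26551206.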

How the data were processed

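RNA-seq of BT-549 cells with an inducible WDR5 shRNA covered 3 vehicle and 3 DOX cultures. By the paper's methods the authors prepared TruSeq Stranded mRNA libraries, aligned reads with STAR to GRCh38 and normalized gene counts with DESeq2. The gene counter and any filter are not given in the sources used here, and the paper names Trizol where the sample records name a column kit. The deposited table holds 1 signal column, the mean normalized count over all 6 libraries, which the authors did not divide by length. Its 5 other value columns hold the authors' own comparison of DOX with vehicle (fold change, error, statistic and p-values) and were not used, so no test between groups was made. The design had foreseen a test only for values of single libraries.

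Lengths and positions came from GENCODE 44 (GRCh38). Of 19792 symbols, 17729 matched directly, 593 through an older symbol or a RefSeq synonym and 1470 not at all. Lengths were the union of exons, and alternatively the longest or canonical transcript. Means below 30 were resolved into whole reads per library from 6 values that at least 100 genes shared. The method was tested on simulated counts, and 3981 of 3981 low genes and 200 of 200 genes near the mean of IL1B were recovered. Intervals (95%, exact Poisson) cover counting error only, and the depth of abundant genes is known only as a range of reads. Promoter windows were RefSeq's, from 250 bases before to 50 after the start, of which the first 250 were used. Members and lists were chosen with earlier results of these data known. Genes named were the 8 members, WDR5, the markers, and of the pathway list those of 100 or more by mean normalized count, the extremes of each role and those without a row. Others of the list were named for completeness after their values were seen. The tools were matplotlib 3.10.9, pandas 2.3.3, scipy 1.17.1 and numpy 2.4.6 under Python 3.11.15.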

Additional observations from a re-analysis of the deposited data

How the results depend on the processing

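The count of members above the median gene was 3 of 8 under all 5 alternatives run: the length of the longest or of the canonical transcript, no division by length, and ranking against genes of 10 or more by mean normalized count or against protein-coding genes. IRAK1 stood above 94.9% to 96.8% of the genes ranked, IL1R1 above 81.0% to 90.8% and IL1RAP above 80.2% to 94.7%. IL1B stood above 4.26% to 32.2% and IL1A above 0.829% to 23.9%. Of the 42 other pathway genes with a row, 28 had a mean normalized count of 10 or more, 35 of at least 1 and 24 of at least 50. Of all 19792 genes, 13548, 16597 and 11649 reached these minimums. Among the 42, 20 stood above the median gene under each of the 3 lengths. A tolerance 10 times wider in the recovery of whole reads, chosen after seeing the data, gave the same reads for the 5 secreted members. No paired analysis was possible because the column used is 1 mean over all 6 libraries, with no replicate number. For the same reason a replicate block, other normalizations, a filter on low counts in a test and leaving out a culture were not run. Depth limits IL1RN, IL18 and IL33, with 3, 2 and 3 reads in all, to a statement of detection.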

Other observations

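The recovered reads of other scarce genes of the IL-1 system differed in how evenly they lay over the 6 libraries, which carry no group here. IL36RN, which encodes the antagonist of the IL-36 receptor, had 63 reads in all. Its normalized counts in libraries 1 to 6 were 5.21, 6.03, 18.1, 4.13, 10.1 and 21.7, with libraries 3 and 6 above the other 4. IL36B, an IL-36 cytokine, had normalized counts of 4.46, 6.03, 6.04, 2.07, 3.79 and 0, and was lowest in library 6. IL1RL2, the receptor for both products, ranged only from 18.1 to 36.6 over the libraries.

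PYCARD, the inflammasome adaptor, had 11 of its 27 reads in library 1, with a normalized count of 8.18 there and 1.72 to 5.43 in the other libraries. These values rest on few reads each, and no comparison of libraries was tested.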
